A study of Rattus norvegicus with 9 samples.

Results

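Rat CD68+ cells that had adhered to fibrinogen (FG) in vitro were compared with CD68+ cells taken straight from blood. Of the 9 arrays of the series, 6 enter this comparison, chosen by their sample titles: 3 of FG-activated CD68+ cells and 3 of blood CD68+ cells. Both groups came from male Wistar rats, as mononuclear cells selected magnetically with the CD68 antibody ED1. The FG-activated cells were then cultured for 3 days on expanded PTFE coated with FG, and the blood cells were not cultured. No cells cultured without FG were measured, so FG, PTFE, serum, adhesion and time in culture cannot be told apart. The remaining 3 arrays, of CD68+ cells from the foreign body reaction (FBR), entered the fit only to estimate the spread. They also counted in choosing the brightest probe set of each gene. The titles call the arrays biological replicates without giving the rats behind each, so n counts arrays, and p-values measure the spread between these arrays.

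CD68 is a glycoprotein of late endosomes and lysosomes that is abundant in monocytes and macrophages. Monocytes that leave the blood and attach to a surface spread out and become macrophages, which enlarge their lysosomes, take up lipid and cell debris, and secrete proteases and cytokines. FG, the clotting protein that adsorbs to implanted materials, is bound by the leukocyte integrin Mac-1, the pair of the chains encoded by Itgam and Itgb2.

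All values are MAS5 signals. Such a signal is a linear intensity and depends on the probe set, so levels are compared between arrays and never between genes. Fold changes are differences of log2(signal + 16), given with their standard error (SE), as FG-activated over blood. They understate the change of dim genes. A call means a Benjamini-Hochberg adjusted p under 0.05 from limma over all 31099 probe sets. The median signal per array was 87.0 to 110.1 in FG-activated and 97.3 to 102.8 in blood cells. Pearson's r of the log2 values was 0.931 to 0.958 between FG-activated arrays, 0.947 to 0.969 between blood arrays and 0.817 to 0.883 between the groups.

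Of all probe sets, 11.4% were called higher and 13.4% lower in FG-activated cells. Read as 1 probe set per gene, 2183 of 14218 genes were higher (15.4%) and 1729 were lower (12.2%), and the median over all genes was 0.13. Every count of a list below is to be read beside these shares. The changes were large. At least 4-fold differences were called for 593 higher and 492 lower genes, and at least 32-fold differences for 41 higher and 36 lower genes. The 3 arrays of either group did not overlap in 6197 of all 14218 genes (43.6%), and in 3881 of the 3912 called genes (99.2%), so non-overlap of a called gene adds little to its call.

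The label was checked against markers of the cells that the selection could hold. Cd68 itself read 28965, 23892 and 38244 in FG-activated cells, against 11741, 3524 and 8449.5 in blood cells. It was higher on every FG-activated array (log2 fold change 2.08 ± 0.41, adjusted p = 0.0044), and the lowest blood value was that of replicate 2. Csf1r, the receptor of the macrophage growth factor CSF1, averaged 8162 ± 1598 in FG-activated and 4801 ± 2681 in blood cells (SD, n = 3 each) and was not called. The lysozyme gene Lyz2 was likewise bright in both groups, at 32857 ± 10592 in FG-activated and 21371 ± 1858 in blood cells (SD, n = 3 each). Among 13 measured macrophage markers 4 rose, 0 fell and 9 were not called, with a median of 1.48. Without blood replicate 3, 8 of them were called higher.

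Markers of B cells were bright on the blood arrays. Ms4a1, which encodes the B cell surface protein CD20, had signals of 139.6, 185 and 717 in FG-activated cells, against 12498, 15691 and 16481 in blood cells. All 11 measured B cell markers were lower in FG-activated cells, with a median of -5.14. Their summed signal lay between 1125 and 3986 on the FG-activated arrays and between 55361 and 74807 on the blood arrays. The highest FG-activated sum was that of replicate 3. Of 17 T cell markers 11 fell and 1 rose (Il7r, the interleukin-7 receptor chain, 2.23), and of 15 NK cell markers 11 fell and 0 rose. The NK cell sum was 429 to 624 in FG-activated and 3435 to 10140 in blood cells, and 11 of the 15 genes stayed under a signal of 50 on every FG-activated array. Blood replicate 2 stood apart: it had the highest T and NK cell sums (13408 and 10139.6) and the lowest monocyte sum of the blood arrays (43925, against 91711 and 78374 in replicates 1 and 3). In these bulk samples fewer cells of a type and less RNA per cell cannot be told apart. The part of these lymphocyte markers' fall in any lower gene below was not tested.

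**Figure D1:**
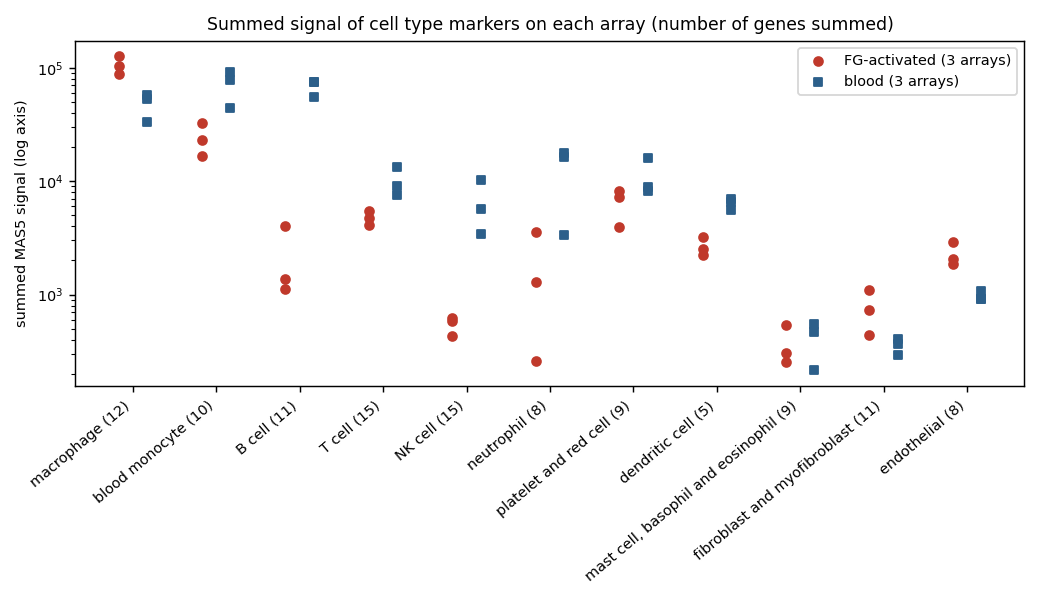
Summed MAS5 signal (log axis) of each cell type's marker genes on each array, with FG-activated arrays as red circles and blood arrays as blue squares, and the number of genes summed in brackets. The B cell sums lie at 1125 to 3986 in FG-activated and 55361 to 74807 in blood cells, while the macrophage sums lie at 88210 to 125775 in FG-activated and 33325 to 57835 in blood cells.

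Genes that mark circulating monocytes were lower or not called. Of 10 measured, 6 fell and 0 rose, with a median of -2.02. Ly6c, a surface protein of classical monocytes in rodents, had signals of 104, 149.7 and 292 in FG-activated cells, against 12755, 4686 and 8700.3 in blood cells (log2 fold change -5.46 ± 0.46, adjusted p = 4.6e-05). The transcription factor gene Klf2, which is high in quiescent blood leukocytes, read 497, 646 and 413 in FG-activated cells, against 8444, 5929.8 and 9666 in blood cells (-3.90 ± 0.27, adjusted p = 2e-05). Both were lower on every FG-activated array. Nr4a1, the nuclear receptor needed for patrolling monocytes in mice, fell by 3.97 on the log2 scale. The chemokine receptor gene Ccr2, with which monocytes leave the marrow, was lower (-2.60 ± 0.83, adjusted p = 0.043), but its adjusted p was 0.075 to 0.12 when any of the blood arrays was left out. Fcnb, a ficolin of monocytes and granulocytes, was lower (-4.06 ± 1.21, adjusted p = 0.034). That call was lost without blood replicate 1 or 3 or FG-activated replicate 1 or 2 (adjusted p = 0.059 to 0.1). Spn and Cx3cr1 were not called. Of 8 neutrophil markers 2 fell, a count of 0 without blood replicate 1 and 4 without blood replicate 2, and their sum was 261 to 3529 in FG-activated and 3380.2 to 17754 in blood cells.

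The 10 largest rises were led by Igf1, the insulin-like growth factor, with signals of 9522, 11334 and 24042 in FG-activated cells, against 16.4, 3.69 and 124 in blood cells. Its log2 fold change was 8.27 ± 0.87 (adjusted p = 0.00013), and FG-activated replicate 3 was the highest. Fabp4, the fatty acid binding protein of fat cells and macrophages, read 5710.5, 13628 and 20062 in FG-activated cells, against 26.3, 8.37 and 49.7 in blood cells (8.16 ± 0.51, adjusted p = 1.6e-05). Slc47a1, an exporter of organic cations, read 3039.9, 3366 and 2357 in FG-activated cells, against 1.54, 1.22 and 2.23 in blood cells, where it was near the floor of the array. Its log2 fold change of 7.36 depends on the constant of 16. Spp1, which encodes osteopontin, changed by nearly as much as Igf1 (8.25). It could be read on only 2 FG-activated arrays, at 30730.3 and 54591, against 56.9, 21.4 and 878 in blood cells.

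The 10 largest falls held genes of B cells (Pou2af1, Cr2 and Ebf1), whose markers fell as a whole. Others among them are not B cell markers of the list. Rnase6, an antimicrobial ribonuclease, had signals of 30, 16.5 and 7.69 in FG-activated cells, against 3939, 4450.5 and 3049 in blood cells (-6.85 ± 0.37, adjusted p = 1.1e-05). G0s2, an inhibitor of the fat-splitting lipase ATGL, read 23, 85.8 and 4.94 in FG-activated cells, against 8441, 1572 and 5567 in blood cells (-6.59 ± 0.67, adjusted p = 0.00011). Hpgds, the hematopoietic prostaglandin D synthase, read 90.1, 89.7 and 181 in FG-activated cells, against 6293, 7977 and 9444 in blood cells (-5.91 ± 0.38). All 3 were lower on every FG-activated array, which the naming rule required. Satb1, a chromatin organiser of lymphocytes, fell by 5.89 on the log2 scale. P2ry10, a receptor for lysophospholipids, fell by 5.88.

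**Figure D2:**
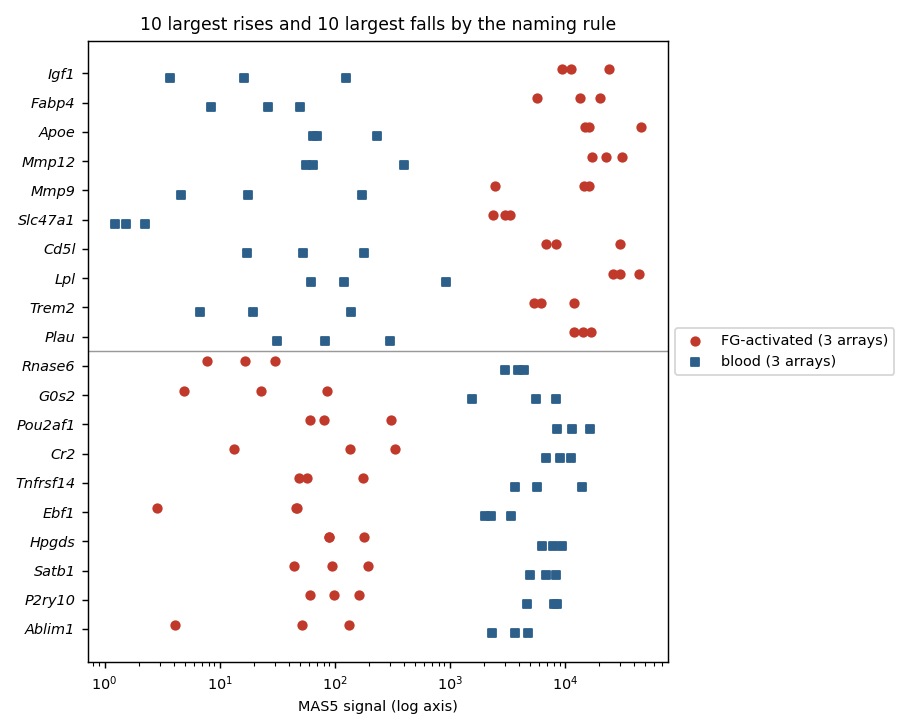
MAS5 signal (log axis) of the 10 genes with the largest rise (above the line) and the 10 with the largest fall (below it), with FG-activated arrays as red circles and blood arrays as blue squares. The groups do not overlap in any of these genes, which the naming rule required.

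Of 20 integrin subunits 4 rose, 4 fell and 12 were not called (median 0.39), which lies near the shares of all genes (15.4% higher and 12.2% lower). Of the chains of Mac-1, Itgb2 had signals of 23905, 21257 and 19245 in FG-activated cells, against 11651, 5356 and 9579 in blood cells and was called higher (1.34 ± 0.31, adjusted p = 0.0095). Itgam read 1552 and 2660.3 (2 arrays read) in FG-activated cells, against 733, 312 and 1588 in blood cells and was not called (adjusted p = 0.09). Itgax, whose product with Itgb2 also binds FG, read 12816, 15126 and 14386 in FG-activated cells, against 5746, 1447 and 3123 in blood cells (2.24 ± 0.43, adjusted p = 0.0039). Itga6, a chain of laminin receptors, rose most (2.91), and Itgav, a chain of vitronectin receptors, was higher at 1.57. Itgb3, which pairs with Itgav and with the platelet chain Itga2b, was lower, with signals of 478, 929 and 483 in FG-activated cells, against 3579.5, 3309.8 and 2298 in blood cells (-2.30 ± 0.32). Itga2b itself fell by 3.31 and 4 of 9 platelet and red cell markers were lower. The sum of those markers was 3947 to 8211 in FG-activated and 8125 to 16129 in blood cells. Itgad and Itgb7, the other chains that fell, changed by -3.69 and -3.87.

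Genes of the actin skeleton and of podosomes, the adhesive feet of macrophages, were more often higher. Of 37 measured, 16 rose (43.2%), 2 fell (5.4%) and 19 were not called, with a median of 0.73. Among all genes 15.4% were higher and 12.2% lower. Actn1, the actin cross-linker alpha-actinin, had signals of 9004, 8616 and 2405 in FG-activated cells, against 147, 201 and 258 in blood cells. FG-activated replicate 3 was the lowest of its group, but every FG-activated array lay above every blood array (4.75 ± 0.47, adjusted p = 9.1e-05). The Arf GTPase regulator Asap2 (4.62), the ankyrin repeat protein gene Rai14 (4.39) and the actin bundler Pls3 (3.79) followed. The adaptor Vcl was higher at 1.00 ± 0.30, a call not checked with an array left out. Tln1, which links integrins to actin, was not called (0.75 ± 0.37). Wipf1, a partner of the actin regulator WASP, ran the other way, at 4196, 5025 and 4457 in FG-activated cells, against 11039, 13302 and 10764 in blood cells (-1.35 ± 0.23). Wasl, the other gene that fell (-1.02 ± 0.32), was called only with all arrays or without blood replicate 3, and its adjusted p was 0.055 to 0.12 without any other array.

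Of 17 genes linked to macrophage fusion and osteoclasts 7 rose (41.2%) and 2 fell (11.8%), against 15.4% and 12.2% of all genes. Their median was 1.07, or 0.61 without blood replicate 2. Trem2, a lipid-sensing receptor of macrophages, read 6257, 5450.5 and 12125 in FG-activated cells, against 19.4, 6.8 and 139 in blood cells (7.22 ± 0.69, adjusted p = 8e-05). Ctsk, the collagen-cleaving cathepsin K, read 6601, 8078 and 2702 in FG-activated cells, against 44.7, 139.6 and 176 in blood cells (5.43 ± 0.53). The tetraspanin gene Cd9 (4.06) and the transcription factor gene Mitf (3.47) were higher too. The osteoclast enzyme gene Acp5 ran against them, with 633, 1046 and 2444 in FG-activated cells, against 3989, 5326 and 6210.4 in blood cells (-2.10 ± 0.46, adjusted p = 0.0077). Nfatc1, the main regulator of osteoclast formation, was not called (-0.42 ± 0.21), nor was the receptor gene Tnfrsf11a (-0.13 ± 0.49). Tspan5, another tetraspanin gene, chosen by the study on these samples, was higher on all FG-activated arrays, at 4701, 4433 and 2956 in FG-activated cells, against 166, 227 and 172 in blood cells (4.29).

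Proteases that cut matrix were among the strongest risers. Of 30 genes of matrix proteolysis and the plasminogen system 15 rose, 0 fell and 15 were not called, with a median of 1.51. Mmp12, the macrophage elastase, had signals of 22776, 17384 and 31634 in FG-activated cells, against 65.3, 56.3 and 399.9 in blood cells (7.43 ± 0.58, adjusted p = 3.2e-05). Plau, the urokinase that activates plasminogen and so starts the breakdown of fibrin, read 11914, 16886 and 14325 in FG-activated cells, against 31.7, 82.3 and 303 in blood cells (6.96 ± 0.57, adjusted p = 3.8e-05). Both stood far above every blood array. Mmp9, a gelatinase, read 16131, 14646 and 2494 in FG-activated cells, against 4.62, 17.7 and 173 in blood cells, and FG-activated replicate 3 was the lowest of its group (7.37 ± 0.84). The membrane-anchored collagenase gene Mmp14, which the study named, read 1994, 2508 and 2675 in FG-activated cells, against 9.03, 22.1 and 56.9 in blood cells (5.86 ± 0.49). The urokinase receptor Plaur was higher at 2.10 ± 0.53. Inhibitors rose as well: Timp2 read 13754, 9150.5 and 8926 in FG-activated cells, against 2156, 458 and 2951 in blood cells (2.84 ± 0.57), and Timp1 was called at 2.98, with 2 FG-activated arrays read. The metalloproteinase genes Mmp3 and Mmp13 were not called, nor was Plat, the other plasminogen activator (-0.25 ± 0.27).

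Of the 39 gene lists, that of lysosomal genes had the largest share of members called higher (71.8%). Of its 39 measured genes of enzymes and membrane proteins 28 rose, 1 fell and 10 were not called, with a median of 1.61, against 15.4% of all genes called higher. Leaving out any array left 28 or 29 of them called higher. Each of the 39 had a restored or missing value on at least 1 array, so no lysosomal call could be checked on values as deposited. Among the proteases, Ctsd had signals of 23058, 19091 and 32999.5 in FG-activated cells, against 1661, 323 and 2080.5 in blood cells (4.53 ± 0.58, adjusted p = 0.00039), and Ctsl read 23128, 17719 and 30197 in FG-activated cells, against 846, 278 and 1784 in blood cells (4.91 ± 0.54). The tetraspanin of late endosomes, Cd63, read 32999, 28649 and 44863 in FG-activated cells, against 567, 266 and 1709 in blood cells (5.73 ± 0.53, adjusted p = 7.1e-05). In each of these genes blood replicate 2 was the lowest blood array and FG-activated replicate 3 the highest array of all. Gpnmb, a glycoprotein of lysosome-rich macrophages, was higher at 4.88. Enzymes that degrade glycolipids and glycosaminoglycans followed, among them Galc (3.23), Arsb (3.94), Naglu (2.85) and Gla (2.31). Man2b1, the lysosomal mannosidase, was the exception, with 2067, 2489 and 3082 in FG-activated cells, against 7052, 7980.1 and 6356 in blood cells (-1.49 ± 0.25, adjusted p = 0.0019). Tfeb, a transcription factor that drives lysosomal genes, was not called (0.24 ± 0.30), while its relatives Mitf (3.47), Tfec (2.90) and Tfe3 (1.38) were higher.

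The proton pump of the lysosome, the V-ATPase, moved the same way. Of 16 measured subunit and accessory genes 10 rose (62.5%, against 15.4% of all genes), 0 fell and 6 were not called (median 1.34). Atp6v1a, a catalytic subunit, had signals of 14481, 15008 and 18387 in FG-activated cells, against 2833, 2675 and 2817 in blood cells (2.51 ± 0.22, adjusted p = 5.2e-05). Atp6v1b2 and Atp6v1e1 changed by 2.57 and 2.73. The lowest of the 16, Atp6v1h, stood at 0.47 ± 0.27.

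**Figure D3:**
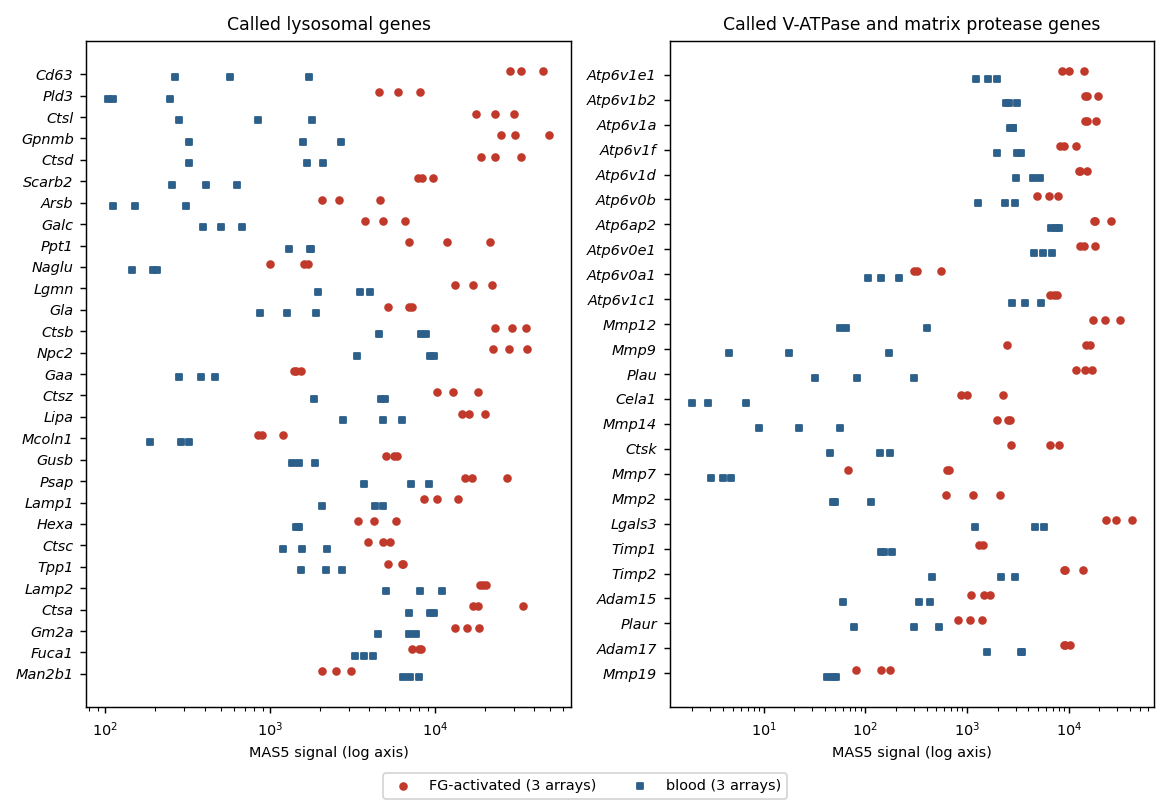
MAS5 signal (log axis) of the called lysosomal genes (left) and of the called V-ATPase and matrix protease genes (right), ordered by fold change within each list, with FG-activated arrays as red circles and blood arrays as blue squares. Man2b1, at the foot of the left panel, is the only gene shown that is lower in FG-activated cells, and values that could not be read are not drawn.

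Promoters of these genes were read from RefSeq (build GRCr8), over the 250 bases before and the 50 bases after each start, because 28 of the 39 lysosomal genes rose. The letters CACGTG, the core of the E-box bound by TFEB and its relatives, are the same on both strands. They were found in 8 of 32 matched lysosomal promoters (25%), in 2 of 13 V-ATPase promoters (15.4%), in 10.5% of the promoters of all genes called higher, 8.74% of those called lower and 8.91% of those measured, and in 6.65% of all 27457 promoters in the table. Of the 8 lysosomal genes, 6 were called higher and Glb1 and Cln3 were not called. The stretch around the match nearest to and before the start is shown for those 6, 5′ to 3′ on the gene's strand, with CACGTG in capitals. A match is a description of letters, not a site or a cause.
Ctsd (chr1:206968822-206968861, minus strand): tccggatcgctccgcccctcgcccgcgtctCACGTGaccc
Lamp1 (chr16:83075066-83075131, minus strand): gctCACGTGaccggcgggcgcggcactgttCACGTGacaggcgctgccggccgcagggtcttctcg
Galc (chr6:123245560-123245609, minus strand): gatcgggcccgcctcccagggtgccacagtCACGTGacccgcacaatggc
Gaa (chr10:105028258-105028323, plus strand): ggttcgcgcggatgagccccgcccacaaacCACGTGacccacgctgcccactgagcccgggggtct
Mcoln1 (chr12:6358206-6358257, plus strand): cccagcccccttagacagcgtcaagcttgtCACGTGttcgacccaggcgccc
Cd63 (chr7:1921924-1921989, plus strand): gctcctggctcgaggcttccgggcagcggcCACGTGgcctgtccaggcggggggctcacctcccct
The match shown begins at -10 from the start for Ctsd and at -190 for Cd63, the nearest and the farthest of the 6. Lamp1 holds 5 matches, of which 2 fall in the stretch shown. Lamp1 read 13684, 10214 and 8574 in FG-activated cells, against 4822, 2074 and 4296 in blood cells (1.60 ± 0.34). Gaa, the acid glucosidase, changed by 1.94, and Mcoln1, the calcium channel of lysosomes, by 1.84.

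Lipid genes formed the next group. Of 35 measured genes of lipid uptake, storage and efflux 21 rose (60.0%, against 15.4% of all genes). Of the rest 0 fell and 14 were not called, and the list median was 1.42. Apoe, the apolipoprotein with which macrophages export cholesterol, had signals of 14930.1, 16356 and 46399.8 in FG-activated cells, against 70.8, 64.8 and 235 in blood cells (7.54 ± 0.51, adjusted p = 2e-05). These are values of its brightest probe set, and the rise was much smaller when all Apoe probe sets were averaged. Lpl, the lipoprotein lipase, read 30100.2, 26021 and 43833 in FG-activated cells, against 119.8, 62.5 and 926 in blood cells (7.24 ± 0.74). Blood replicate 3 was the highest blood array in both. Fabp5 changed by 5.24, the lipoprotein receptor gene Vldlr by 4.40, and the receptor for oxidised lipoprotein, Olr1, by 3.82. Pparg, the nuclear receptor that drives Fabp4 and Cd36, read 773, 1424 and 2659.5 in FG-activated cells, against 324, 103 and 145 in blood cells (2.95 ± 0.50, adjusted p = 0.002). Cd36 was higher at 2.14 and the cholesterol exporter Abca1 at 1.66, while Abcg1 was not called (-0.89 ± 0.30). Ch25h, the cholesterol 25-hydroxylase, read 3927, 2200.5 and 317 in FG-activated cells, against 75.1, 47.3 and 87.2 in blood cells, which was lowest by far in FG-activated replicate 3 (4.09 ± 0.73).

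Of 53 respiratory chain and citrate cycle genes 25 rose (47.2%, against 15.4% of all genes), 0 fell and 28 were not called (median 0.90). Only 15 were called without FG-activated replicate 3. Idh2, the mitochondrial isocitrate dehydrogenase, had signals of 10337, 10280.4 and 10954 in FG-activated cells, against 3526, 2199.9 and 3224 in blood cells (1.84 ± 0.26). The changes in this list were small, and the largest, Uqcrq, was 2.30. Of 27 genes of glycolysis and the hypoxia response 16 rose (59.3%, against 15.4% of all genes) and 2 fell (median 1.40). Eno2, an enolase isoform best known from neurons, read 3044, 3169 and 2104 in FG-activated cells, against 22.3, 38.4 and 62 in blood cells (5.65 ± 0.30, adjusted p = 1.1e-05). The glucose transporter gene Slc2a1 read 2958, 2073 and 2989 in FG-activated cells, against 316, 215 and 405 in blood cells (3.06 ± 0.28), and its relative Slc2a3 was lower (-1.57 ± 0.43), a call lost without blood replicate 2 or 3 or FG-activated replicate 3 (adjusted p = 0.067 to 0.076). Ldha rose (1.34) while Ldhb, the other lactate dehydrogenase chain, fell by 2.16. Vegfa and Hif1a were not called.

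Genes that answer oxidants through the factor NRF2 were read with those of glutathione and the pentose phosphate pathway. Of 29 members 18 were higher (62.1%, against 15.4% of all genes) and 0 lower (median 1.27). Leaving out any array left only 13 to 15 of them called higher. Slc7a11, the cystine importer, read 3006, 6193 and 2847 in FG-activated cells, against 86.3 and 63.9 (2 arrays read) in blood cells (5.38 ± 0.68). Akr1b8, an aldose reductase-like enzyme, read 16868, 13986 and 17448 in FG-activated cells, against 1219.9, 254 and 892 in blood cells (4.58 ± 0.48), and Nqo1, a standard NRF2 target, read 6979.6, 9704 and 7856 in FG-activated cells, against 1744, 726 and 1022 in blood cells (2.87 ± 0.34). The groups did not overlap in any of these, as in 99.2% of all called genes. The factor's own gene, Nfe2l2, was higher at 1.29 ± 0.40, a call not checked singly with an array left out. Of 19 genes of heme and iron handling 9 rose and 0 fell (median 0.48, or 0.86 without blood replicate 1 and 0.99 without FG-activated replicate 1). Hmox1, which breaks down heme, had signals of 14632, 13531 and 22137 in FG-activated cells, against 1004, 261 and 804 in blood cells (4.74 ± 0.45, adjusted p = 7.8e-05). Cp, the copper oxidase ceruloplasmin, read 4029, 5604 and 1166 in FG-activated cells, against 46, 37.1 and 88.8 in blood cells (5.42 ± 0.52), with FG-activated replicate 3 lowest in its group. The iron exporter Slc40a1 was not called (0.10 ± 0.27). Of 29 genes of amino acid transport and the amino acid response 11 rose, led after Slc7a11 by Slc1a4 (2.63) and Asns (2.62), while Atf4 itself was not called. The 1 that fell, Slc7a7 (-0.83 ± 0.27, adjusted p = 0.047), was called without FG-activated replicate 3 but not without any other array (adjusted p = 0.066 to 0.15).

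Genes of DNA replication and mitosis were higher in 24 of 41 cases (58.5%, against 15.4% of all genes) and lower in 2 (median 1.32). Mki67, the proliferation marker Ki-67, had signals of 1047, 1679 and 1028 in FG-activated cells, against 93.8, 79.7 and 271 in blood cells (3.09 ± 0.65). Tyms, which makes thymidylate, read 446, 280.1 and 261 in FG-activated cells, against 12.2, 2.62 and 7.96 in blood cells (3.85 ± 0.31, adjusted p = 3.7e-05), and Cdk1, the mitotic kinase, read 826, 945 and 958 in FG-activated cells, against 44, 36 and 153.2 in blood cells (3.52 ± 0.49). In blood cells these genes were dim, and replicate 3 was the brightest blood array for Mki67 and Cdk1. The helicase genes split: Mcm2 (1.65), Mcm5 (1.72) and Mcm6 (1.07) were higher, Mcm4 and Mcm7 were not called, and Mcm3 was lower at 644, 1106 and 1140.3 in FG-activated cells, against 2102, 2876 and 2969.8 in blood cells (-1.47 ± 0.28). Tacc3, a spindle protein gene, was the other that fell (-1.16). Of the cyclins that the study chose on these samples and the FBR cells, Ccnd2 read 3021, 6752 and 4061 in FG-activated cells, against 242, 401 and 422 in blood cells, and Ccne1, which acts at entry into S phase, read 247, 381 and 407 in FG-activated cells, against 32.9, 72.4 and 7.61 in blood cells.

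An E2F-like sequence, TTTNNCGC on either strand, stood in 12 of 35 matched promoters of this list (34.3%), against 8.61% in all genes called higher, 8.67% in all genes called lower, 7.64% in all genes measured and 5.19% of all promoters. E2F factors control entry into S phase. Matches on opposite strands can overlap, and a promoter was counted once. CCAAT, on either strand, stood in 25 of the 35 (71.4%) and in 37.7% of all promoters. The stretches below hold the match nearest to and wholly before the start, in capitals, for 2 strong risers, Tyms and Cdk1, and for Stmn1, a microtubule regulator (1.98).
Tyms (chr9:120776084-120776150, minus strand): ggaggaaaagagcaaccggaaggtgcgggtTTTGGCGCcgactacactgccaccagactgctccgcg
Cdk1 (chr20:19265233-19265292, plus strand): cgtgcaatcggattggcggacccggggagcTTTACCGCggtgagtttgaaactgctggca
Stmn1 (chr5:151965070-151965137, plus strand): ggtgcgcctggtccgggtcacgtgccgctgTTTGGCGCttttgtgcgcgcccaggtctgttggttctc
Among the helicase genes, the promoters of Mcm2, Mcm5 and Mcm6 also hold these letters, as does that of Mcm7, which was not called.

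**Figure D4:**
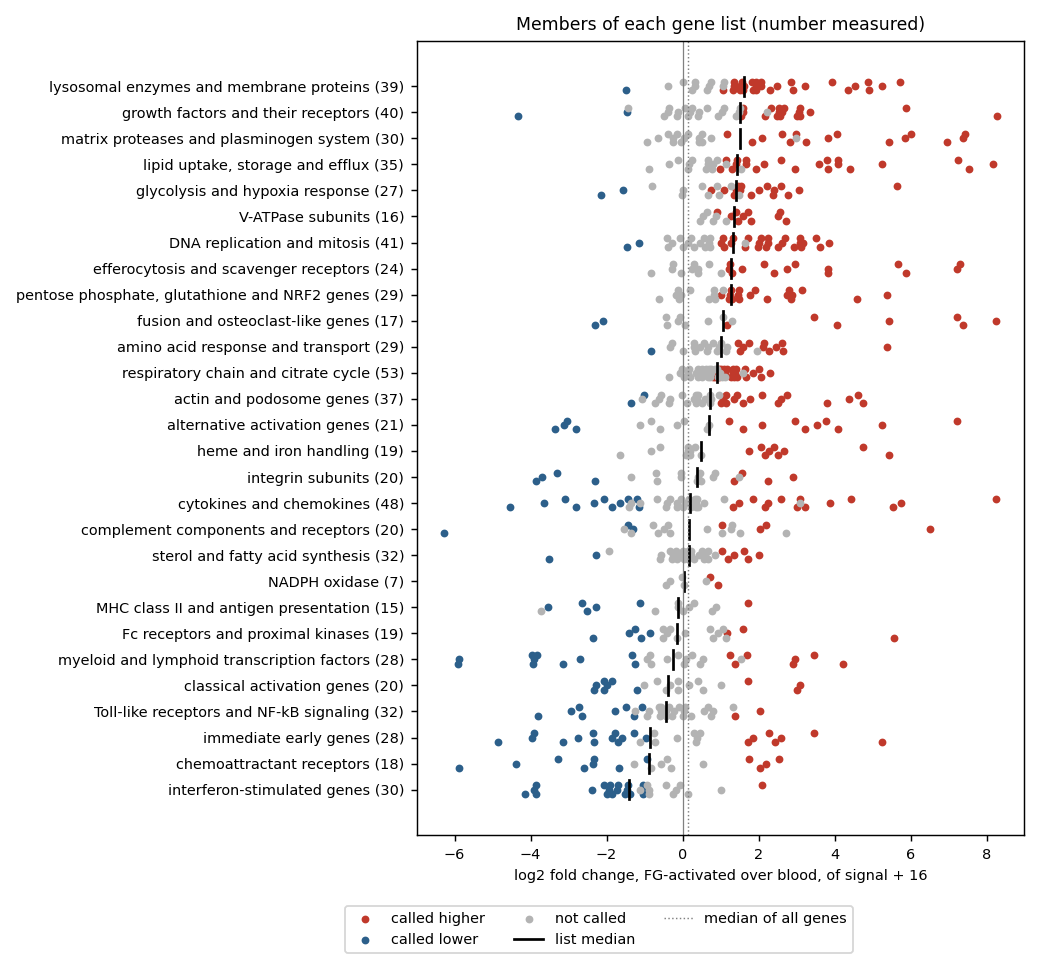
Log2 fold change (FG-activated over blood, of signal + 16) of every measured member of each of the gene lists other than the cell type markers, with the number measured in brackets, black bars for list medians and a dotted line for the median of all genes (0.13). The medians of the lists drawn run between 1.61 for lysosomal genes and -1.41 for interferon-stimulated genes.

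Growth factors and their receptors rose in 18 of 40 cases (45.0%, against 15.4% of all genes) and fell in 2 (median 1.51). After Igf1, Gas6, the bridging ligand of the receptors Axl and Mertk, read 7567, 5595 and 3946 in FG-activated cells, against 34.5, 50 and 238 in blood cells (5.87 ± 0.56, adjusted p = 8.1e-05). Mertk read 1804, 2816 and 1507 in FG-activated cells, against 25.3, 5.63 and 51.9 in blood cells (5.66 ± 0.50) and Axl read 17032, 16197 and 11466 in FG-activated cells, against 583, 726 and 2436 in blood cells (3.84 ± 0.62). All 3 genes, with which macrophages engulf dying cells, were higher on every FG-activated array. Of 24 genes of efferocytosis and scavenging 14 rose (58.3%, against 15.4% of all genes) and 0 fell (median 1.28). Risers included Cd5l (7.30), the guanine exchange factor gene Dock1 (2.95) and the scavenger receptor gene Colec12 (2.76).

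In the TGF-beta group, the ligand Tgfb1 was higher at 2.57 ± 0.78, with 2 blood arrays read, and Tgfb2 was not called. The call of Tgfb1 was not checked with an array left out. The receptor gene Tgfbr1 read 13707, 12772 and 14092 in FG-activated cells, against 2475, 1917 and 2634 in blood cells (2.53 ± 0.22, adjusted p = 5.4e-05), and the co-receptor endoglin, Eng, was higher at 3.02. Smad3 and the inhibitor Smad7 were not called. Tgfbi, a secreted matrix protein named for its induction by TGF-beta, went the other way, with 264, 664 and 248 in FG-activated cells, against 12479, 4178 and 8023 in blood cells (-4.34 ± 0.45, adjusted p = 0.00013). Egfr, which with Tgfbr1 was chosen by the study on these samples and the FBR cells, read 831, 943 and 309.7 in FG-activated cells, against 47.7, 38.5 and 55.2 in blood cells (3.35 ± 0.39). Of its ligands Hbegf was higher (1.60), Tgfa was lower (-1.46, adjusted p = 0.055 and 0.072 without blood replicate 1 and FG-activated replicate 1) and Areg and Ereg were not called. Pdgfa (3.06), Vegfb (3.10) and Flt1 (3.10), a receptor for VEGF, were higher.

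Cytokines and chemokines went both ways: 14 of 48 rose, 11 fell and 23 were not called (median 0.20). Il18bp, a soluble inhibitor of interleukin-18, had signals of 6349, 6637 and 12129 in FG-activated cells, against 135, 125 and 139.8 in blood cells (5.75 ± 0.31, adjusted p = 1.1e-05). Its target Il18 was higher at 1.84. The chemokine gene Ccl9 read 3141, 9215 and 2483 in FG-activated cells, against 190.2, 23.9 and 71.2 in blood cells (5.54 ± 0.63), and Ccl2, which attracts monocytes, read 13770.1, 8618 and 3278 in FG-activated cells, against 269, 94.1 and 3986 in blood cells. For Ccl2 the groups overlapped, since blood replicate 3 lay above FG-activated replicate 3 (3.87 ± 1.07). Its call was not checked with an array left out. The inflammatory cytokines did not move as a group. Tnf read 845, 1012 and 409 in FG-activated cells, against 77.7, 71.5 and 56.9 in blood cells (3.10 ± 0.33, adjusted p = 0.00014), and Il1a rose (3.00). Il1b was lower, at 993, 1129 and 184 in FG-activated cells, against 3046, 1419 and 3868 in blood cells (-2.07 ± 0.61, adjusted p = 0.033), and its call was lost without blood replicate 1 or 3 or FG-activated replicate 3 (adjusted p = 0.051 to 0.11). Il6 read 106, 45.4 and 1.67 in FG-activated cells, against 201, 195 and 350.5 in blood cells (-2.33 ± 0.58, adjusted p = 0.015), and was not called without blood replicate 3 (adjusted p = 0.054). The lymphocyte cytokines Ltb (-4.55) and Il16 (-3.64) were lower, as were the B cell markers as a whole. Without blood replicate 3, 7 cytokine genes were called lower, and without FG-activated replicate 1, 10 were called higher.

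Lists of genes used to mark alternative and classical activation each held called genes in both directions. Of 21 alternative activation genes 10 rose and 4 fell (median 0.70). Arg1, the arginase, read 4701, 2602 and 896 in FG-activated cells, against 86, 5.13 and 80.2 in blood cells (5.24 ± 0.67, adjusted p = 0.0004), with FG-activated replicate 3 lowest in its group. Mrc1, the mannose receptor, read 2259.8, 2607 and 8669.5 in FG-activated cells, against 301, 323 and 293 in blood cells (3.54 ± 0.45), and there replicate 3 was by far the highest. Chi3l1 was lower, at 481, 2169.7 and 322 in FG-activated cells, against 11541, 3511 and 9807 in blood cells (-3.36 ± 0.65), as were Clec10a (-3.11), F13a1 (-3.03) and Ccl17 (-2.81, 2 FG-activated arrays read). Of 20 classical activation genes 3 rose (Tnf, Il1a and Cd86, 1.72) and 7 fell (median -0.39), and 4 were called lower without blood replicate 3. Nos2, the inducible nitric oxide synthase, was not called (-0.11 ± 0.52), nor was Il10 (-0.15 ± 0.40).

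**Figure D5:**
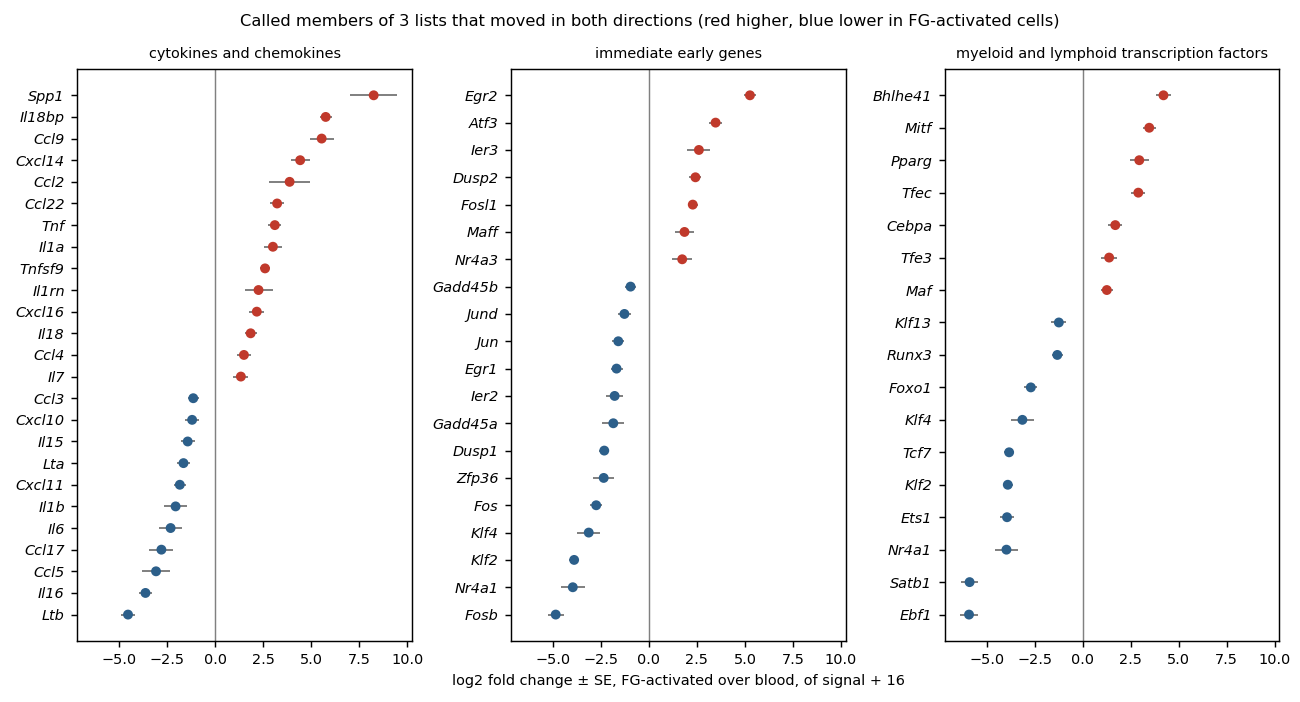
Log2 fold change ± SE (FG-activated over blood) of the called members of the cytokine, immediate early and transcription factor lists, in red where higher and blue where lower in FG-activated cells. Each list holds called genes on both sides of 0, with 14, 7 and 7 higher and 11, 13 and 10 lower.

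Interferon-stimulated genes were lower. Of 30 measured 1 rose, 19 fell and 10 were not called, with a median of -1.41, against 12.2% of all genes called lower. Leaving out an array left 14 to 18 of them called. Mx1, an antiviral GTPase, had signals of 306, 183 and 399.7 in FG-activated cells, against 7077, 3364 and 3699 in blood cells (-3.90 ± 0.43, adjusted p = 0.00016). Ifit3 read 43.8, 63.6 and 46.8 in FG-activated cells, against 3253, 473 and 1063 in blood cells (-4.16 ± 0.55), and blood replicate 1 was the highest array in both. Irf7, the factor that amplifies the interferon response, read 662, 484 and 319.8 in FG-activated cells, against 5277, 1344 and 2271 in blood cells (-2.39 ± 0.45). The signal carriers Stat2 (-1.46) and Irf9 (-1.38) were lower. Ube2l6, which attaches ISG15 to proteins, was the exception, at 1584, 1016 and 1563 in FG-activated cells, against 334, 265 and 333 in blood cells (2.08 ± 0.27).

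MHC class II genes were lower or not called: of 15 genes of antigen presentation 1 rose, 5 fell and 9 were not called (median -0.11, or -0.67 without blood replicate 2, -0.42 without FG-activated replicate 1 and -0.35 without FG-activated replicate 3). Ciita, the master activator of these genes, had signals of 164, 371 and 734 in FG-activated cells, against 4194, 4518 and 4201 in blood cells (-3.53 ± 0.43, adjusted p = 0.00031). RT1-Ba read 784, 2715 and 7105 in FG-activated cells, against 17748, 11669 and 18113 in blood cells (-2.64 ± 0.62), and in both genes FG-activated replicate 3 was the highest of its group, as it was for the B cell sum. B cells express these genes, and the RT1 genes are close copies of each other whose probes may not tell them apart. Of the pattern receptors and their signal chain 2 of 32 rose (Cd14, 2.04, and Ly96, which encodes the TLR4 partner MD-2, 1.38) and 8 fell (median -0.43). Against 15.4% higher and 12.2% lower of all genes, these are 6.2% and 25.0% of the list. Without blood replicate 1, 4 were called higher. Tlr1 read 104, 199.7 and 164 in FG-activated cells, against 1622, 833 and 1541 in blood cells (-2.95 ± 0.33), and the NF-kB regulator Nfkbiz read 1178, 1268 and 850.2 in FG-activated cells, against 7341, 8374 and 6269 in blood cells (-2.73 ± 0.25). Tlr2 and Tlr4 were not called.

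Of 20 complement genes 4 rose and 3 fell (median 0.17), near the shares of all genes (15.4% and 12.2%), and 7 were called higher without blood replicate 3. Serping1, the inhibitor of the first complement proteases, had signals of 5154, 6061 and 6069 in FG-activated cells, against 41.4, 25.5 and 88.7 in blood cells (6.52 ± 0.35, adjusted p = 1.1e-05). The receptors for the split products C5a and C3a were higher, C5ar1 at 2.19 (2 FG-activated arrays read) and C3ar1 at 2.05. The recognition chains C1qa, C1qb and C1qc were not called, and C1qa averaged 1596 ± 1242 in FG-activated and 315 ± 328 in blood cells (SD, n = 3 each). Cr2, the complement receptor of B cells, fell by 6.27. Of 19 Fc receptor and proximal kinase genes 3 rose (15.8%) and 5 fell (26.3%), against 15.4% and 12.2% of all genes (median -0.15). Without blood replicate 1, 6 were called higher, and without blood replicate 3, 2 were called lower. Clec4a, a lectin receptor of myeloid cells, read 10960.3, 12057 and 21847 in FG-activated cells, against 298, 269.6 and 285 in blood cells (5.57 ± 0.29, adjusted p = 1.1e-05), and Fcgr3a was lower (-2.36).

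Immediate early genes fell more often than they rose, 13 against 7 of 28 (median -0.86). Fosb had signals of 23.7, 31.5 and 61.9 in FG-activated cells, against 1398, 2833 and 887 in blood cells (-4.86 ± 0.41, adjusted p = 4.4e-05), and the phosphatase gene Dusp1 read 2401, 4018 and 2915 in FG-activated cells, against 16282, 12791 and 17524 in blood cells (-2.33 ± 0.27). Fos was lower on its brightest probe set (-2.75), and its other probe set was called higher. Egr2 went the other way, with 17564, 17078 and 11280.0 in FG-activated cells, against 283, 397 and 473 in blood cells (5.26 ± 0.31, adjusted p = 1.4e-05), as did Atf3, at 9105, 10271 and 10829 in FG-activated cells, against 1230.4, 496 and 1159 in blood cells (3.47 ± 0.33). Egr1, a close relative of Egr2, was lower (-1.69 ± 0.31, 2 blood arrays read).

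Among 28 transcription factors of myeloid and lymphoid cells 7 rose and 10 fell (median -0.26). Bhlhe41, a repressor found in tissue macrophages and B cells, had signals of 21815, 19313 and 19714 in FG-activated cells, against 622, 2013 and 993 in blood cells (4.21 ± 0.39, adjusted p = 6.7e-05). Cebpa (1.70) and Maf (1.26) were higher too. Those that fell include the lymphoid factors Ebf1, Satb1, Tcf7 and Ets1, and Ets1 read 491, 916 and 1018 in FG-activated cells, against 8254, 19233 and 11008 in blood cells (-3.94 ± 0.37). Klf4, which monocytes need for their development, read 1955, 948 and 336 in FG-activated cells, against 12454, 3875 and 9399.5 in blood cells (-3.14 ± 0.59). Irf8, another factor of monocytes, was not called (-0.83 ± 0.32).

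The study also named Lamp3, Npy and Rasal2 on these samples, and chose Rasal2 against the FBR cells as well. For Lamp3, Npy, Mmp14 and Tspan5 it reported the difference in this comparison by RT-PCR too. Lamp3, a lysosomal membrane protein of mature dendritic cells, had signals of 88, 8.95 and 58.7 in FG-activated cells, against 1263, 1654 and 1409.6 in blood cells (-4.65 ± 0.48), so it ran against the lysosomal list, of which it is no member. Npy, neuropeptide Y, read 67.9, 39.8 and 179 in FG-activated cells, against 4112, 2564 and 3893 in blood cells (-5.16). Rasal2, a Ras GTPase-activating protein gene, read 1237, 1063 and 859 in FG-activated cells, against 44.9, 21.9 and 73.8 in blood cells (4.16). The groups did not overlap in any of these genes, as in 99.2% of all called genes.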

How the data were processed

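RNA of CD68+ cells was amplified by in vitro transcription and hybridised to Affymetrix rat genome-wide arrays. The authors deposited MAS5 signals (linear intensity), scaled per array, and the trimmed mean without 2% at each end lay between 498.9 and 501.5. Part of the table had lost its decimal points. Of 186594 values on the 6 arrays, 82.9% were used as they stood, 16% (whole numbers too large for the scale) were divided by 1000, 118 were read back from dates, and 1905 (1.02%) that could be read in different ways were treated as missing. The missing ones touched 5.9% of probe sets, which were fitted on the arrays left. Tables of the authors' own log2 fold changes and adjusted p-values, from RMA, were not used.

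The log2 of signal + 16 was fitted with limma 3.58.1 in R 4.3.3 (lmFit, eBayes) over 9 arrays with a mean per group and no block, leaving 6 residual degrees of freedom, and Benjamini-Hochberg adjustment covered all 31099 probe sets. The fit was tested on simulated data. Of the probe sets 20832 carry 1 gene symbol, and for each of 14218 genes the brightest of them over the 9 arrays stood for the gene. Close gene copies (RT1, Klr, Hbb and Ccl genes) may share probes. Named by rule were the 10 largest rises and falls among called genes whose groups did not overlap and whose higher group averaged at least 500, up to 4 called members of each list per direction, members against the majority, defining members and genes the study names. Some further members were chosen as examples after their values were seen. Lists and members were chosen with earlier results of these data known. Precision is limited by the number of arrays. Alternatives tried were pseudocounts of 1 and 64, only mean signals of at least 100, quantile or median scaling, 6 arrays alone, a trended robust variance, weighted arrays, the replicate number as block, only unrestored values, stricter calls, averaged probe sets, and leaving out each array.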

Additional observations from a re-analysis of the deposited data

How the results depend on the processing

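The main counts were 3556 probe sets higher and 4166 lower. Restricting to the 19024 probe sets with all values as deposited gave 996 and 1210. Fewer probe sets are tested there, as those with any restored or missing value drop out. By the restoring rule, the values divided by 1000 lay in a middle range of signal. The subset is therefore uneven in brightness, and drops many moderately bright genes. Some brighter genes, such as Apoe, Lpl and Mmp12, stayed in. A test against a log2 fold change of 1 gave 699 and 909, and an adjusted p under 0.01 gave 1889 and 2366. Leaving out each array gave 2850 to 3283 higher and 3337 to 3855 lower. Every other alternative stayed within 1.5 times of the main counts. With quantile normalization 49.2% of called probe sets were higher, against 46.1% with the MAS5 scaling alone. The replicate block gave 3335 and 3882. Deviations of arrays with equal replicate numbers had correlations of 0.00, 0.07 and 0.01. These cannot tell whether such arrays shared an animal or a day, which the labels do not say.

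Single genes were checked for 187 called genes: the largest changes, up to 4 per list and direction, and those the study names. None of them changed direction. With an array left out, 70 of their fold changes, over 22 genes, were no longer called, and 49 under the other alternatives, over 17 genes. Other genes given as called, such as Tgfb1, Ccl2, Vcl, Nfe2l2 and Fos, were not checked singly. Among list medians, those of fusion genes (-0.13), alternative activation genes (-0.15), complement genes (-0.39) and immediate early genes (1.10) changed sign when only unrestored values were used, which leaves 3, 7, 9 and 8 members. By more than the spread between replicates, 17 medians (11 lists) moved with an array left out and 45 (24 lists) under the other alternatives. No lysosomal gene remained with unrestored values only, and the interferon-stimulated median was -0.12 over the 4 that did. The median of the Fc receptor list ranged between -0.35 and 0.10 with an array left out, the higher value without FG-activated replicate 1. Reading the ambiguous whole numbers as signals, an alternative chosen after seeing the data, gave 3439 and 4056. The cause of these shifts was not tested. Signals under about 50 lie near the floor of the array, so fold changes of genes dim in either group depend on the pseudocount.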

Other observations

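Of 32 measured genes of sterol and fatty acid synthesis 6 rose, 2 fell and 24 were not called (median 0.17). That is 18.8% higher and 6.2% lower, against 15.4% and 12.2% of all genes, and nothing is read from it about the list. Sqle, the squalene epoxidase, had signals of 1724, 1533 and 2760.4 in FG-activated cells, against 468, 426 and 521 in blood cells (2.01 ± 0.26, limma adjusted p = 0.00046), and Msmo1, a sterol oxidase, read 4111, 2910.0 and 4395 in FG-activated cells, against 1764, 1128 and 1583 in blood cells (1.34 ± 0.27). The desaturase gene Scd went the other way, with 14, 98.4 and 113 in FG-activated cells, against 327, 2175 and 851 in blood cells (-3.51 ± 0.73, adjusted p = 0.0062), and blood replicate 2 was the highest array. Elovl6, the other that fell (-2.28 ± 0.53, 2 FG-activated arrays read), was not called without FG-activated replicate 1 (adjusted p = 0.089) or with ambiguous values read as signals (adjusted p = 0.79). Promoters of this list held CCAAT in 19 of 25 cases (76%), against 37.7% of all promoters, and the sterol element-like letters TCACNCCA in 2 of 25 (8%), against 3.91%.

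Receptors for attractants changed in both directions, 4 of 18 higher and 8 lower (median -0.88). Ccr1, a receptor for inflammatory chemokines, read 6005, 4926 and 6400.0 in FG-activated cells, against 1186, 685 and 1169 in blood cells (2.53 ± 0.30, adjusted p = 0.00026). S1pr1, with which lymphocytes leave tissues, read 888, 1228 and 1895 in FG-activated cells, against 9948, 15359 and 13153 in blood cells (-3.29 ± 0.30), and Ccr6, a receptor of B cells and memory T cells, fell by 4.38, as the B cell marker sum was lower too. Of 7 NADPH oxidase genes 2 were called higher (28.6%, against 15.4% of all genes), Cybb (0.92 ± 0.27) and Rac1 (0.73 ± 0.21). Neither was called under quantile normalization (adjusted p = 0.098 and 0.18). With an array left out, at most 1 of the 2 was called. Of 8 endothelial markers 2 were higher (25.0%) and 1 lower (12.5%), against 15.4% and 12.2% of all genes. The endothelial sum was 1875 to 2927 in FG-activated and 911 to 1065 in blood cells. Tie1 read 1125, 814 and 1342 in FG-activated cells, against 313, 304 and 268 in blood cells (1.81 ± 0.26), and Vwf was lower (-1.72). Esam was higher (1.11 ± 0.31), a call lost without blood replicate 1 or 2 or FG-activated replicate 1 (adjusted p = 0.067 to 0.088). Of 11 fibroblast and myofibroblast markers 2 were higher, Pdgfrb and Acta2, a count of 0 without blood replicate 2. That share of 18.2% is near the 15.4% of all genes. Genes under a signal of 50 on every array of the group numbered 3 in FG-activated and 7 in blood cells, and the sum was 439.8 to 1108 in FG-activated and 296 to 402 in blood cells. Pdgfrb read 103, 58.4 and 23.5 in FG-activated cells, against 14.2, 5.83 and 18.2 in blood cells (1.32 ± 0.39) and was called only with all arrays or without blood replicate 3 or FG-activated replicate 3. Acta2, the smooth muscle actin, read 239, 223 and 366 in FG-activated cells, against 161, 91.3 and 119 in blood cells (1.06 ± 0.29), and its call was lost without blood replicate 2 or 3 or FG-activated replicate 3 (adjusted p = 0.064 to 0.075). Col1a1 averaged 57 ± 18 in FG-activated and 48.1 ± 6.46 in blood cells (SD, n = 3 each) and was not called. Markers of mast cells, basophils and eosinophils were not called in any of 10 genes.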
